A study of Mus musculus with 4 samples.

Results

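The genes described here are the 10 members of the MYC-MAX-MXD network, the set of transcription factors that pair with MAX or with its relative MLX. They were chosen by name, as the rows for Myc, Max, Mxd1, Mxd3, Mxd4, Mxi1, Mnt, Mga, Mlx and Mlxip in a table of 16591 genes, and all 10 were found there and passed the filter on low counts. RNA sequencing reads were counted in 4 libraries of C57BL/6 mouse Eμ-Myc lymphoma cells, in which Myc is expressed from an immunoglobulin heavy-chain enhancer. The sensitive group is the line JQ1S and the resistant group the line JQ1R, with 2 libraries each, and JQ1 is a small molecule that blocks the bromodomains of BET proteins. Early-passage cells of both lines grew in Dulbecco's medium with fetal calf serum, asparagine and 2-mercaptoethanol, and the labels name no drug in the medium. Each group is a single line, and whatever else differs between JQ1S and JQ1R cannot be told apart from resistance.

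MYC binds DNA only as a pair with MAX, mainly at the E-box motif, and such pairs activate genes of growth and ribosome production. The MXD proteins (Mxd1, Mxd3, Mxd4 and Mxi1, which encodes MXI1 or MXD2), MNT and MGA compete with MYC for MAX. At the same sites the MXD proteins and MNT recruit the SIN3 corepressor, and MGA joins a Polycomb complex. MLX is a second hub that pairs with some MXD proteins, with MNT and with MLXIP (MondoA), a sensor of glucose-derived metabolites. In B cells Myc drives proliferation. Some MXD genes are known for their rise as cells leave the cycle and mature, and Mxd3 for expression in dividing cells.

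The E-box was looked for in the members' own promoters, since the network is known to bind it. A window from 250 bases before to 50 bases after the RefSeq start site on GRCm38.p6 was found for 9 of the 10 members, with 3 windows for Mxi1, and Myc had no window. The letters CACGTG, which read the same on both strands, were in 4 of these 9 members, Max, Mxd4, Mnt and Mlx, and in 8.09% of all genes with a window (7.15% of 32851 windows). That share includes genes too low to test, whereas all of these members were tested. Among tested genes with a window, 1038 held the motif and 7264 did not, a larger share. The 4 sequences are shown, cut at 20 bases after the start, because Mxd4 is the member that changed and the other 3 hold the same motif. Each is printed on the gene's strand with the motif in capitals.
Max, chr12:76962229-76962498, minus strand: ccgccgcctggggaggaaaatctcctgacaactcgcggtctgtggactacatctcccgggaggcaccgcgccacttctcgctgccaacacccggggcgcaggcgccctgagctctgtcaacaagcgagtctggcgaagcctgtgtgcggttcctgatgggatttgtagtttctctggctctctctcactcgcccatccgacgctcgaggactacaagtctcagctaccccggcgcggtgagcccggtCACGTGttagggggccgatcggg
Mxd4, chr5:34187691-34187960, minus strand: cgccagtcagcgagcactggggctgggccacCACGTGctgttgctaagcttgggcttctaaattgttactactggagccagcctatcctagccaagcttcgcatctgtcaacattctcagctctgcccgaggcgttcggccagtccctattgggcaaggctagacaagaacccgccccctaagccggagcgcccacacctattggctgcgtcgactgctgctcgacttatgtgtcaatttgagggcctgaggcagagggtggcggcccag
Mnt, chr11:74830674-74830943, plus strand: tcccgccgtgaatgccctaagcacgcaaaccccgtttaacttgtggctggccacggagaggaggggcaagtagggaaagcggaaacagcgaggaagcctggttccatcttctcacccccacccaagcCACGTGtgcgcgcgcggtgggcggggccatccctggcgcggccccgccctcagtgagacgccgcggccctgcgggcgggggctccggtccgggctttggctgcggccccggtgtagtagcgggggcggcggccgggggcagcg
Mlx, chr11:101087040-101087309, plus strand: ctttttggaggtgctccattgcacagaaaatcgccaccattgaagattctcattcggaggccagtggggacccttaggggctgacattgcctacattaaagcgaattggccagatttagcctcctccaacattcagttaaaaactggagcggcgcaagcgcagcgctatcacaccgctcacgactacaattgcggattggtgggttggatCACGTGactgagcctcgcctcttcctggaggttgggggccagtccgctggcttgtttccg
The RefSeq start of Max lies upstream of the GENCODE start given with the gene. The motif began at base -3 in Max, -40 in Mlx, -123 in Mnt and -219 in Mxd4, counted from the RefSeq start. A match describes letters only, and binding was not measured.

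Total counts were 10346007 to 13048103 per library, and 11945 genes were tested between the lines with edgeR's quasi-likelihood test. Of these, 445 genes (3.73%) had an adjusted p below 0.05, 263 (2.20%) higher and 182 (1.52%) lower in resistant cells. For 47.3% of tested genes the values of the 2 lines did not overlap. B-cell markers were present in all libraries, with summed levels of 2361 to 2483 CPM (counts scaled to a library size of 1000000) over the 13 of 14 found in the table. Of the other cell types' markers, those of T and NK cells (4 of 10 found) summed to 0.972 to 1.83 CPM, of myeloid cells (5 of 10) to 5.63 to 8.16 CPM and of erythroid cells (2 of 7) to 0.505 to 0.680 CPM. The stromal and endothelial markers (2 of 7 found) summed to 88.6 to 100.3 CPM, nearly all of it Pecam1, with Cdh5 at 1.17 to 1.56 CPM. Of these genes 5 were tested, and 0 changed by edgeR, DESeq2 or limma-voom or had an unadjusted p below 0.05 by edgeR.

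Of the 10 network genes, 1 changed between the lines, the MYC antagonist Mxd4, which rose in resistant cells. This share of 10% stands beside 3.73% of all tested genes. The 4 MXD genes had positive log2 changes and the other 6 members had negative ones, and with the exception of Mxd4 none passed the test (adjusted p of 0.246 or more). The lines did not overlap in 8 members, 4 higher and 4 lower in resistant cells, against 47.3% of all genes. The members' median log2 change was -0.04, beside 0.00 over all genes. The split by subfamily was seen in the values and has no test of its own.

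**Figure D1:**
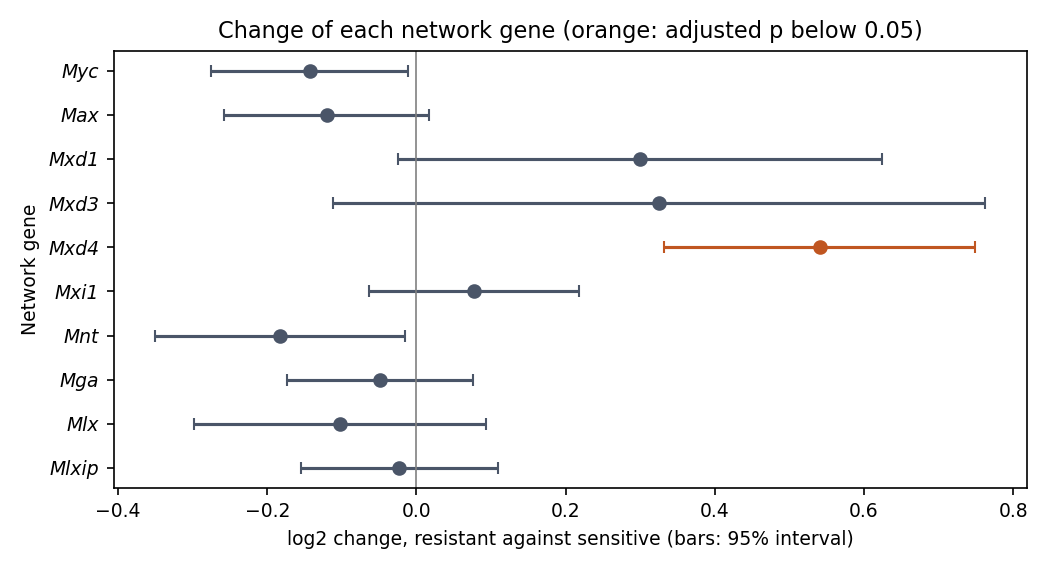
Log2 change of each network gene in resistant against sensitive cells (x axis) with its 95% interval (bars), from edgeR with 2 libraries per line. Mxd4 (orange, 0.54) was the only gene with an adjusted p below 0.05. The intervals of Mxd1 and Mxd3 are the widest.

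Levels of different genes were compared as CPM per kilobase of exon, with exon lengths from GENCODE M21. On this scale Myc stood first, at 573 ± 56.9 in sensitive and 519 ± 16.5 in resistant cells (mean ± SD, n = 2 libraries each). Max was second at 45.3 ± 3.67 and 41.7 ± 0.19, so that the Myc level was 12.6 and 12.5 times that of Max. Mlxip (17.5 and 17.2), Mlx (16.4 and 15.2), Mxi1 (12.4 and 13.0), Mnt (11.9 and 10.4) and Mga (10.4 and 10.1) followed within a narrow range. Mxd4 was eighth at 6.52 ± 1.32 and 9.41 ± 0.05, and Mxd3 (1.48 to 1.53 and 1.88 to 1.89) and Mxd1 (0.992 to 1.003 and 1.18 to 1.27) were the lowest, given as the range of the libraries.

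The order of the means was the same in both lines. Of the 9 pairs of neighbours, the values of Mlxip and Mlx overlapped in the sensitive libraries, as did those of Mxi1 and Mnt, and those of Mnt and Mga overlapped in the resistant libraries. The other 6 pairs were separate in each line and over all 4 libraries. Mga stood 1.59 times above Mxd4 in sensitive and 1.07 times above it in resistant cells. Exon length counts every annotated exon, used or not, so that these ratios between genes are approximate.

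**Figure D2:**
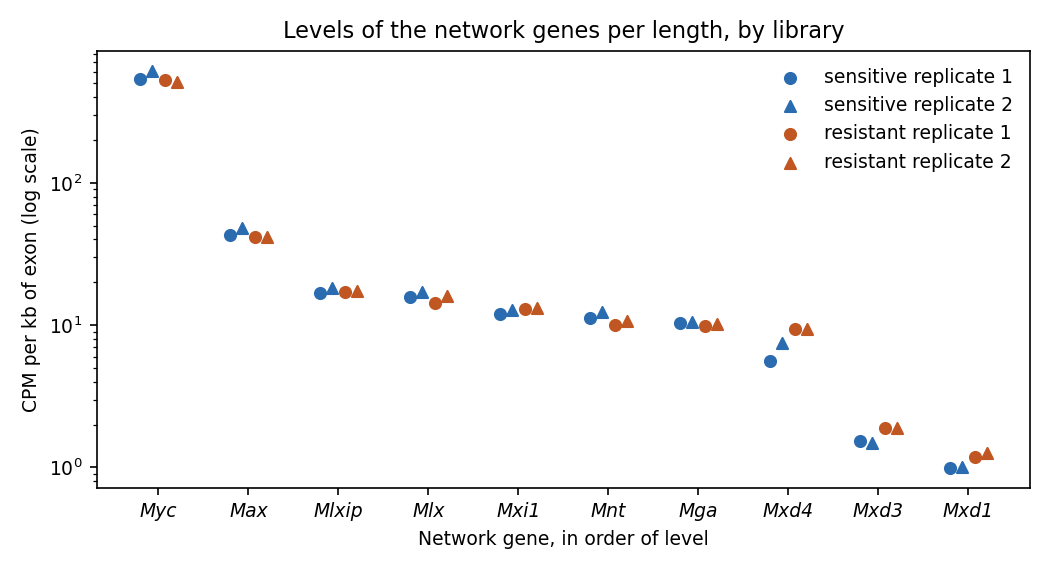
Level of each network gene in each of the 4 libraries, as CPM per kb of exon on a log scale, ordered from the highest to the lowest mean in sensitive cells. Myc lies 12.2 to 12.8 times above Max, 6 genes lie between 5.59 and 18.2, and Mxd3 and Mxd1 lie below 2. The orange points of Mxd4 are above both of its blue points.

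Myc (ENSMUSG00000022346, chromosome 15, 61985391 to 61990374 on GRCm38), the oncogene that drives these lymphomas, was read at 1449 and 1667 CPM in the sensitive line and 1442 and 1379 CPM in the resistant line. The lower sensitive library lay within 10 CPM of the higher resistant library. Myc took 0.144% (95% interval 0.142 to 0.146) and 0.166% (0.163 to 0.168) of counts in the sensitive libraries, and 0.144% (0.142 to 0.146) and 0.139% (0.137 to 0.141) in the resistant libraries. These exact (Clopper-Pearson) intervals cover counting error only. By counts Myc ranked 40 to 62 among the 16591 genes. Its log2 change of -0.14 ± 0.06 (SE; 95% interval -0.27 to -0.01) had an adjusted p of 0.250 in edgeR. Without sensitive replicate 1 the change was -0.24 (adjusted p = 7.01e-07), which rests on a lone sensitive library, and without sensitive replicate 2 it was -0.04 (adjusted p = 0.647). Reads of the transgene and of the cells' own Myc gene cannot be told apart in a count per gene.

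Among the relatives of Myc and MLXIP, Mlxipl, which encodes the glucose sensor ChREBP, had 0 and 2 counts in sensitive and 3 and 5 in resistant libraries and was too low to test. Mycn and Mycl were not analysed here.

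Max (ENSMUSG00000059436, chromosome 12, 76937269 to 76962201), the obligate partner of MYC, stood at 154 and 172 CPM in the sensitive line and 150.4 and 149.4 CPM in the resistant line. Both resistant values were below both sensitive values, and the gap to the nearer one was smaller than the gap between the sensitive libraries. The log2 change was -0.12 ± 0.06 (95% interval -0.26 to 0.02, edgeR adjusted p = 0.372). It was -0.20 (adjusted p = 0.00818) without sensitive replicate 1 and -0.04 without sensitive replicate 2. The Myc to Max ratio was 12.5 and 12.8 in sensitive and 12.7 and 12.2 in resistant libraries, which overlap.

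Mxd4 (ENSMUSG00000037235, chromosome 5, 34173883 to 34187720), a MAX-binding repressor also known as MAD4, had 615 and 651 counts in sensitive and 869 and 952 counts in resistant libraries. Scaled to depth, these were 47.4 and 63.3 CPM in the sensitive line and 79.5 and 80.1 CPM in the resistant line. Both resistant libraries were above both sensitive libraries, and the sensitive libraries differed from each other by 0.42 on the log2 scale against 0.01 for the resistant pair. The rise was 1.45-fold (95% interval 1.26 to 1.68), a log2 change of 0.54 ± 0.10 with an adjusted p of 0.00362 in edgeR. In bulk RNA a rise in every cell and a larger rise in some of the cells cannot be told apart. Of all tested genes, 168 had a smaller p, and 6.14% had a larger change in either direction. The call held in all 11 alternatives run, 4 of which leave a lone library in a line. In the alternatives with all libraries, adjusted p-values were 1.23e-08 (edgeR with the replicate block) to 0.00457 (edgeR scaled by library size only). In size the change ranged from 0.34 without sensitive replicate 1 to 0.75 without sensitive replicate 2, and both of these values rest on a lone sensitive library. Of its exonic bases 6.06% overlap the gene Gm42846 on the other strand, which was not analysed here, and the strand setting of the counting is not given in the sources used here.

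Mxd1 (chromosome 6, 86647042 to 86669161), the founding MXD repressor, stood at 7.01 and 7.09 CPM in the sensitive line and 8.33 and 9.01 CPM in the resistant line. Mxd3 (chromosome 13, 55325168 to 55329823), an MXD gene known for expression in dividing cells, stood at 3.62 and 3.50 CPM in the sensitive line and 4.49 and 4.46 CPM in the resistant line. In both genes the resistant pair lay above the sensitive pair. The log2 changes were 0.30 ± 0.15 for Mxd1 (95% interval -0.02 to 0.62, adjusted p = 0.341) and 0.33 ± 0.21 for Mxd3 (-0.11 to 0.76, adjusted p = 0.455), both in edgeR. With 73 to 107 counts of Mxd1 and 36 to 53 counts of Mxd3 per library, a rise of the size seen in Mxd4 lies within both intervals. Of the exonic bases of Mxd3, 4.43% overlap Prelid1 on the other strand, a gene at 221 to 280 CPM whose lines overlapped.

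Mxi1 (chromosome 19, 53310518 to 53375810), the most abundant of the MXD genes per length, stood at 81.3 and 87.3 CPM in the sensitive line and 88.1 and 89.4 CPM in the resistant line. The lines were separate by less than the sensitive libraries were from each other. The log2 change of 0.08 ± 0.07 had a 95% interval of -0.06 to 0.22, which lies below the estimate for Mxd4 (edgeR adjusted p = 0.609).

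Mnt (chromosome 11, 74830920 to 74845725), a broadly expressed MAX-binding repressor, stood at 52.1 and 57.6 CPM in the sensitive line and 46.5 and 49.8 CPM in the resistant line. Its values were lower in both resistant libraries, with a log2 change of -0.18 ± 0.08 (95% interval -0.35 to -0.02) and an adjusted p of 0.246 in edgeR. Without sensitive replicate 1 the change was -0.26 (adjusted p = 0.0198), and without sensitive replicate 2 it was -0.11 (adjusted p = 0.429). Mga (chromosome 2, 119897228 to 119969581), a large protein that joins MAX to a Polycomb complex, stood at 159 and 160.4 CPM in the sensitive line and 151 and 157 CPM in the resistant line. Its log2 change was -0.05 ± 0.06 (95% interval -0.17 to 0.08, adjusted p = 0.734).

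In the MLX branch the lines overlapped in both genes. Mlx (chromosome 11, 101087277 to 101092207) stood at 31.5 and 33.9 CPM in the sensitive line and 28.6 and 32.1 CPM in the resistant line, with a log2 change of -0.10 ± 0.09 (95% interval -0.30 to 0.09, edgeR adjusted p = 0.630). Mlxip (chromosome 5, 123394798 to 123457932) stood at 139 and 152 CPM in the sensitive line and 143 and 144 CPM in the resistant line, with a log2 change of -0.02 ± 0.06 (-0.16 to 0.11, adjusted p = 0.900). The direction for Mlxip was reversed without sensitive replicate 2 (0.037). Of the exonic bases of Mlx 19.3% overlap Psmc3ip on the other strand, which stood at 11.5 and 12.1 CPM in the sensitive line and 12.8 and 14.7 CPM in the resistant line.

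Sensitive replicate 2 read higher than sensitive replicate 1 for 9 of the 10 members, all except Mxd3, by a median of 0.11 on the log2 scale. Over all tested genes this median was 0.00. Without sensitive replicate 1, 4 members were called, Mxd4 higher and Myc, Max and Mnt lower, beside 11.3% of all genes in that fit. Mxd4 alone was called without sensitive replicate 2 (9.68% of all genes) and on leaving out resistant replicate 1 (2.45%) or resistant replicate 2 (2.21%). It was also the only member called with DESeq2 (1.74% of all genes), limma-voom (3.69%), the 3 other scalings of edgeR (3.56%, 3.57% and 3.68%), no filter (2.94%) and the replicate block (4.98%).

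**Figure D3:**
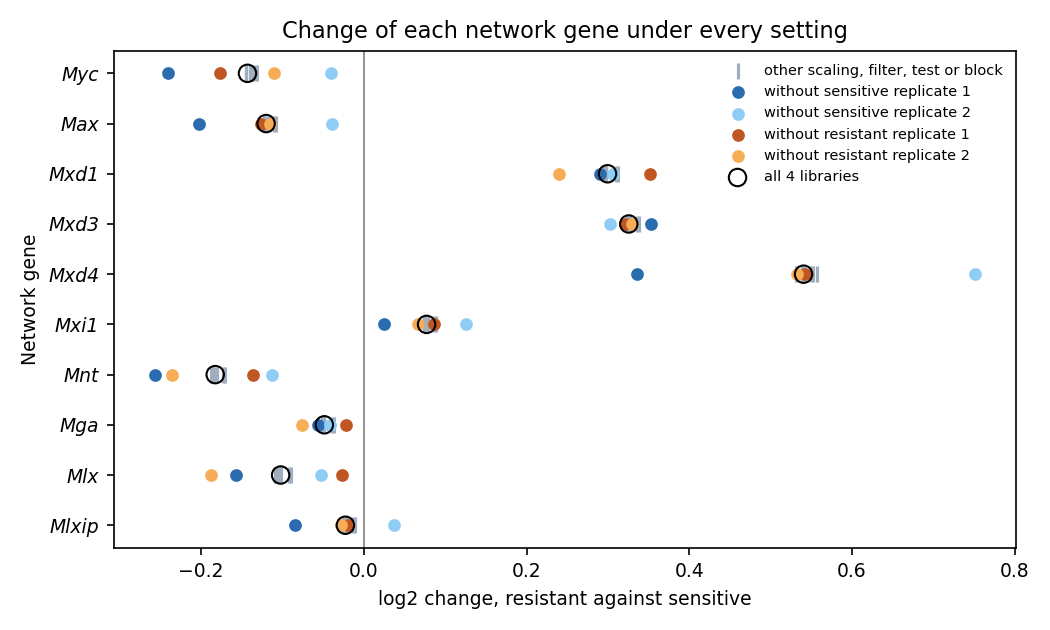
Log2 change of each network gene (x axis) with all 4 libraries (open circles), without each library in turn (filled circles) and under 7 other choices of scaling, filter, test or replicate block (grey ticks). The grey ticks lie close to the open circles, and the blue circles, without a sensitive library, lie farthest out for Myc, Max, Mxd3, Mxd4, Mxi1, Mnt and Mlxip. Mlxip alone crosses 0.

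The balance between activator and antagonists was taken within each library from the levels per length. Myc stood 26.6 and 27.0 times above the summed level of the 4 MXD genes in sensitive libraries and 20.9 and 19.7 times above it in resistant libraries. The lines did not overlap, and the difference was -0.40 on the log2 scale, between -0.44 and -0.36 without any single library. Against all 6 antagonists (the MXD genes, Mnt and Mga) the Myc ratio was 12.8 and 13.4 in sensitive and 11.7 and 10.9 in resistant libraries.

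The sum of the 6 antagonists itself overlapped between the lines, at 41.6 and 45.6 in sensitive and 45.3 and 46.7 CPM per kb in resistant libraries. Relative to Max it was 0.974 and 0.952 in sensitive and 1.08 and 1.13 in resistant libraries, without overlap. The share of Mxd4 in that sum was 13.4% and 16.3% in sensitive and 20.7% and 20.2% in resistant libraries. These ratios were chosen with the members' values known, and with 2 libraries per line an exact permutation test cannot go below p = 0.333. RNA levels do not give the amounts of the proteins, which were not measured.

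**Figure D4:**
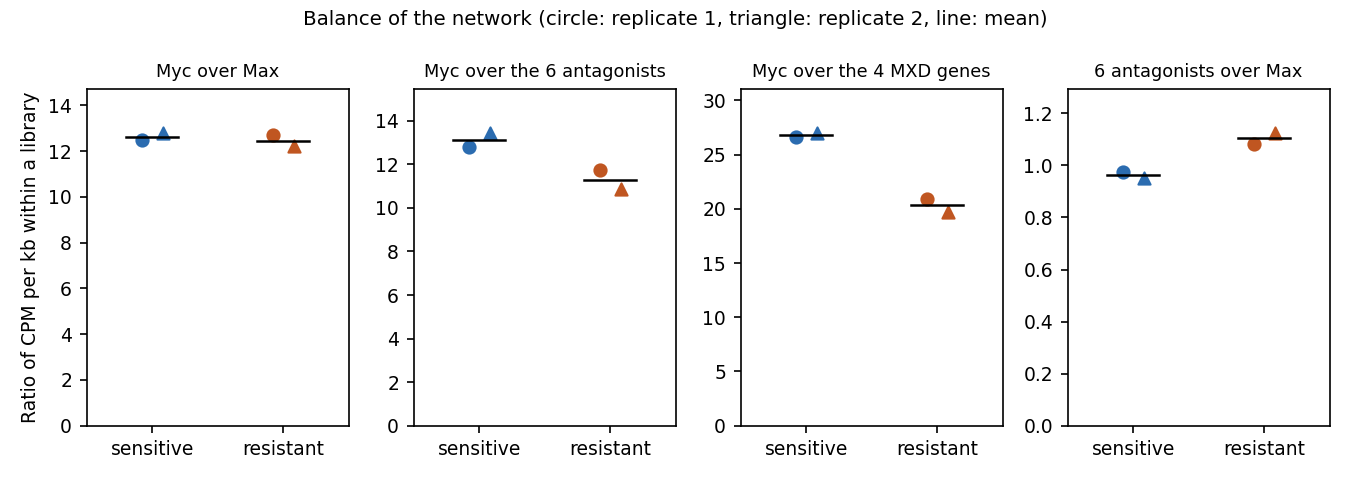
Ratios of levels (CPM per kb of exon) within each library, for sensitive (blue) and resistant (orange) cells, with circles for replicate 1, triangles for replicate 2 and a line at the mean. Myc over Max overlaps between the lines, and Myc over the 4 MXD genes has means of 26.8 and 20.3.

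Genes that act with the network were taken from lists. The SIN3 corepressor, through which the MXD proteins and MNT repress, had 0 of 16 genes called by edgeR, DESeq2 or limma-voom. In edgeR 0 of them had an unadjusted p below 0.05, and the median log2 change was -0.03. Its scaffolds Sin3a (155 ± 13.5 and 147 ± 0.59 CPM) and Sin3b (70.8 ± 1.03 and 76.9 ± 7.16 CPM) had adjusted p-values of 0.623 and 0.460. The smallest p-values on this list were those of Sap30, a SIN3 subunit (0.14), Sap18 (-0.11) and the histone-binding subunit Rbbp4 (0.10), given as log2 changes. Without sensitive replicate 1, 2 of the 16 were called, a share near the 11.3% of all genes in that fit.

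MYC cofactors, among them histone acetyltransferase complexes, had 0 of 13 genes called by these 3 tools, and in edgeR 0 had an unadjusted p below 0.05. Their median was -0.05. Hcfc1 (-0.11), the chromatin subunit Actl6a (-0.09) and the helicase Ruvbl1 (-0.09) had the smallest p-values. The Polycomb partners of MGA had 0 of 11 called by these tools, 0 at an unadjusted p below 0.05 and a median of -0.01, with L3mbtl2 (-0.12), Ring1 (0.16) and Yaf2 (-0.15) nearest to a call. Without sensitive replicate 1, 2 of the 13 cofactor genes were called, beside 11.3% of all genes.

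Genes that control the stability of the MYC protein had 0 of 17 called by edgeR, DESeq2 or limma-voom. In edgeR 3 had an unadjusted p below 0.05, a share near the 16.9% of all genes that did. The median was -0.08, with 14 of 17 negative beside 5863 of 11945 over all genes. The 3 were the ubiquitin ligase subunit Skp2 (71.3 ± 2.41 and 63.0 ± 1.35 CPM, log2 change -0.18, adjusted p = 0.186), the deubiquitinase Usp36 (-0.14, adjusted p = 0.240) and the kinase Pim3 (-0.16, adjusted p = 0.282). Leaving out sensitive replicate 1 gave 1 call (11.3% of all genes) and leaving out sensitive replicate 2 gave 2 (9.68% of all genes), Skp2 (adjusted p = 0.0311) and Pim3 (adjusted p = 0.0373).

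Targets of MondoA and MLX had 0 of 6 tested genes called by the same tools. In edgeR 2 had an unadjusted p below 0.05, beside 16.9% of all genes, and the median was 0.12. Txnip, the best known of them and an inhibitor of glucose uptake, stood at 60.1 and 67.9 CPM in the sensitive line and 67.1 and 69.0 CPM in the resistant line. Its log2 change was 0.09 ± 0.07 in edgeR (adjusted p = 0.579). The lines overlapped in Txnip. The log2 changes of Hbp1, a transcriptional repressor, Hk2, a hexokinase, and Klf11 were 0.22, 0.18 and -0.39, with adjusted p-values of 0.149, 0.176 and 0.325. Without sensitive replicate 1, Hk2 was called (0.20, adjusted p = 0.0216), beside 11.3% of all genes. Arrdc4 and G0s2 were not analysed here.

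Of the genes that MYC is known to repress, 5 were tested and 1 rose, Cdkn1b, which encodes the cell-cycle inhibitor p27. That is 20% of a list of 5, beside 2.20% of all genes higher in resistant cells. Cdkn1b stood at 67.7 and 76.5 CPM in the sensitive line and 88.9 and 98.6 CPM in the resistant line, with both resistant values above both sensitive ones. Its log2 change was 0.38 ± 0.08 with an adjusted p of 0.00737 in edgeR, and the call was lost without resistant replicate 2 (0.31, adjusted p = 0.159). Of the stress genes, Gadd45b had a log2 change of 0.53 (4.25 ± 0.45 and 6.09 ± 0.32 CPM, adjusted p = 0.149). Its relative Gadd45a lay at 2.60 ± 0.73 and 1.97 ± 0.07 CPM (-0.36, adjusted p = 0.582). Over the 5 genes the median was 0.38, beside 0.30 between the sensitive libraries themselves (replicate 2 minus replicate 1). Of the 5, 4 were positive, beside 6082 of 11945 over all genes, and 6 of the 13 listed genes were not analysed here. Without sensitive replicate 2, 2 of the 5 were called, beside 9.68% of all genes.

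Of the genes that MYC is known to activate, 44 were tested and 2 fell, Nolc1 and Tcof1, nucleolar factors of ribosome production. That is 4.55% of the list beside 3.73% of all genes. Of the 44, 37 had negative log2 changes, beside 5863 of 11945 over all genes. The median was -0.09, beside -0.10 between the sensitive libraries themselves (replicate 2 minus replicate 1). The count depended on single libraries, and became 6 without sensitive replicate 1 (11.3% of all genes called), 20 without sensitive replicate 2 (9.68%), and 0 on leaving out resistant replicate 1 (2.45%) or resistant replicate 2 (2.21%). It was 1 with DESeq2 (1.74%), in which Tcof1 was lost (adjusted p = 0.0591). In edgeR with all 4 libraries, 12 of the 44 had an unadjusted p below 0.05, beside 16.9% of all genes.

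**Figure D5:**
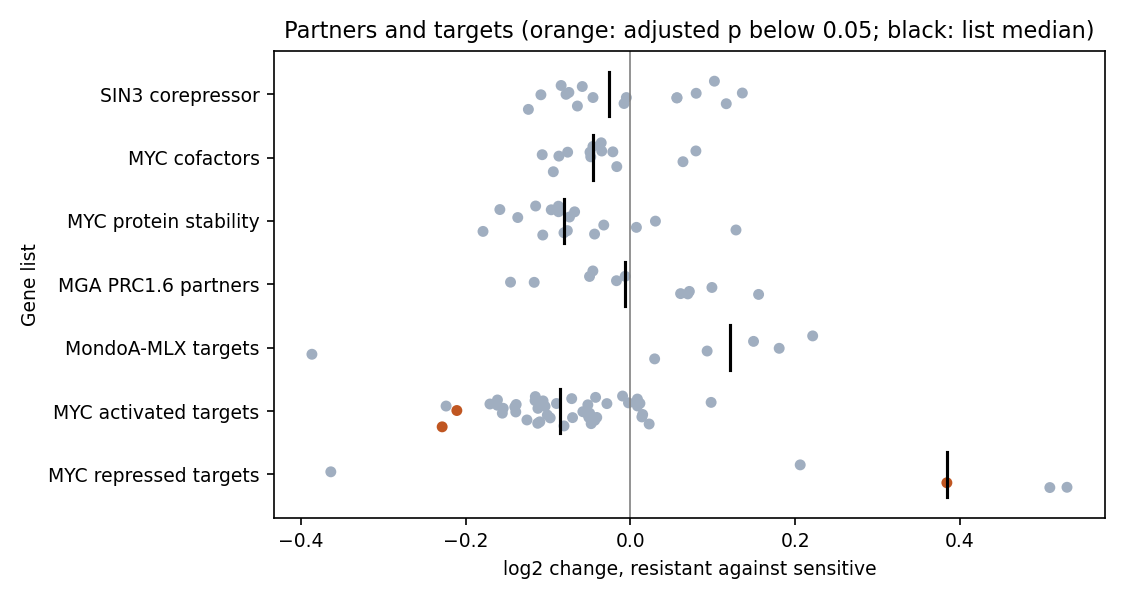
Log2 change in resistant against sensitive cells (x axis) of each tested gene in 7 lists of partners and targets of the network, with list medians as black lines and genes with an adjusted p below 0.05 in orange. Orange points are Nolc1 and Tcof1 among activated targets and Cdkn1b among repressed targets.

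Genes with CACGTG in a promoter window numbered 1038 among those tested. Of them 45 (4.34%) changed, 27 higher and 18 lower, beside 3.50% of the 7264 tested genes with a window and no such motif and 3.73% of all genes. Their median log2 change was 0.00, as it was over all genes. The count was 17 with DESeq2 (1.74% of all genes called), and 22 on leaving out resistant replicate 1 (2.45%) or resistant replicate 2 (2.21%). Leaving out sensitive replicate 1 gave 125 (11.3%), and leaving out sensitive replicate 2 gave 130 (9.68%).

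Markers of B-cell stage differed between the lines beside these results. Of 11 tested B-cell markers 3 rose, Ms4a1, which encodes CD20 (1.31 and 1.36 against 8.15 and 7.07 CPM), Cd22 and Vpreb3, and the recombinase gene Rag1 fell (116 and 118 against 55.6 and 54.0 CPM). These 4 are 36.4% of the markers tested, beside 3.73% of all genes. The calls of Cd22 and Vpreb3 were lost on leaving out either resistant library, and DESeq2 did not call Vpreb3 (adjusted p = 0.139). The general marker Cd79a had a log2 change of 0.01. The part of B-cell stage in the rise of Mxd4 and Cdkn1b was not tested.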

How the data were processed

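RNA was measured in 4 libraries made with an Illumina TruSeq RNA kit, per the labels' protocols. The authors deposited whole-number counts of reads per Ensembl gene in a single table, with no normalization. Builds GRCm38 and mm10 and the tools HTSeq, TopHat, Bowtie2, cutadapt 1.7, FastQC and limma are named in the submitters' processing notes. Strand setting, annotation release and order of the tools: not given in the sources used here. The lowest sum over the libraries was 4 counts, so genes below that were absent before any filter applied here.

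Symbols, positions and exon lengths came from GENCODE M21 (GRCm38), which matched 16407 of 16591 identifiers. Groups came from the titles. Nothing says that replicates were separate cultures, so p-values reflect the spread between these libraries alone, which may be technical. In R 4.3.3, edgeR 4.0.16 was run with its quasi-likelihood test (TMM factors, filterByExpr with a minimum count of 10 and total of 15, group alone), with Benjamini-Hochberg adjustment over 11945 genes and a threshold of 0.05. Standard errors were derived from the F statistic. CPM uses TMM-scaled library sizes.

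Alternatives were 3 other scalings, no filter, DESeq2 1.42.0, limma-voom (limma 3.58.1), the replicate number as a block, and leaving out each library. Scripts were tested on simulated data. Members and lists were chosen with earlier results of these data known. Named genes were all members, close paralogs, Txnip, Arrdc4 and, per list, each called gene or otherwise the 3 with the smallest p. Other named genes (Sin3a, Sin3b, Gadd45a, Gadd45b, Cd79a and overlapping genes) were chosen after their values were seen.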

Additional observations from a re-analysis of the deposited data

How the results depend on the processing

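Over 11 alternatives, 106 of 110 values of the members kept their direction and their side of the threshold. Myc, Max and Mnt were called only without sensitive replicate 1, and Mlxip ranged from -0.085 to 0.037 on leaving out each library. The count of called members was 1 to 4 on leaving out each library and 1 under every other alternative. The cause of these shifts was not tested, apart from the lone library left in an arm, which is assumed to vary like the other line. The count of called genes was 208 with DESeq2, 270 to 1381 on leaving out each library, 425 to 440 with the 3 other scalings, 487 with no filter and 441 with limma-voom. No scaling moved the median of all genes beyond 0.02. Among 28 named list genes, 290 of 308 values were kept, 12 lost and 5 gained a call, and Pecam1 was reversed in 1 (-0.17 to 0.015 on leaving out each library). With the replicate block, 595 genes and 1 member, Mxd4, were called, and Nolc1 was lost (adjusted p = 0.0567). Deviations of same-numbered libraries had a correlation of -0.03 across genes, which gives no sign of pairing. Depth limits Mxd1 and Mxd3 most, with at most 107 counts per library.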
